A study of Homo sapiens with 12 samples.

Results

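The genes described here encode the antigen-presenting molecules of MHC class II and 2 proteins that serve them, the invariant chain CD74 and the transactivator CIITA. They are the 8 genes CIITA, HLA-DRA, HLA-DRB1, HLA-DPA1, HLA-DPB1, CD74, HLA-DMA and HLA-DMB, picked by symbol from a table of 57500 genes. They were picked because earlier results on these libraries had shown their levels in both comparisons. Their own values are therefore given as a description, without a test. Total RNA, depleted of ribosomal RNA, was sequenced from 12 libraries of 3 established human cancer lines, in 4 groups of 3 replicates that the labels call biological. SW480 is a colorectal cancer line from a primary tumour, and SW620 is a line from a metastasis of the same patient. Both SW lines were untreated and grew in DMEM. PEO4 is an ovarian cancer line that grew in RPMI 1640, either in control medium or with recombinant human TGF-β at 10 ng/mL for 6 days. All groups had the same serum (10% FBS) and antibiotics, the labels name no interferon, and each line stands for itself alone.

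MHC class II molecules are pairs of an α and a β chain that show peptides from endosomes to CD4+ T cells. Dendritic cells, macrophages and B cells carry them constantly, and epithelial and tumour cells can switch them on, typically after interferon-γ. CIITA is the co-activator that controls this switch: it binds no DNA itself but joins RFX, NF-Y and CREB proteins that sit on a conserved stretch of the class II promoters, with an X box bound by RFX and a Y box (an inverted CCAAT box) bound by NF-Y. CD74 blocks the peptide groove of new class II molecules and guides them to endosomes. There HLA-DM, the pair of HLA-DMA and HLA-DMB, exchanges the last CD74 fragment for a peptide. TGF-β is known in other cell types to lower the CIITA response to interferon-γ.

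The letters of these boxes differ between the promoters, and 4 promoters are printed because their genes behaved differently in the comparisons that follow. Of the 8 genes, 6 had a promoter entry (RefSeq sequences, GRCh38.p14), and HLA-DRA and CIITA did not. Each sequence is the 250 bases before the RefSeq start, 5′ to 3′ on the gene's strand. Capitals mark letters from the end of the X box (ACNGATG) or the core of the CCAAT box (ATTGG, or CCAAT where it lies on the other strand), both searched on both strands. The marked matches do not overlap, and the X-box letters were chosen with these promoters in view.
HLA-DRB1 (chr6:32589849-32590098, minus strand): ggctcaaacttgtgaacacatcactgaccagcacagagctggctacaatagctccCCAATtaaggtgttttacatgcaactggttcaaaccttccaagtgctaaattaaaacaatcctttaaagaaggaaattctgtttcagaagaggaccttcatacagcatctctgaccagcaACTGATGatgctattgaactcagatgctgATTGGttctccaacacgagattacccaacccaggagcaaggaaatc
HLA-DMA (chr6:32953098-32953347, minus strand): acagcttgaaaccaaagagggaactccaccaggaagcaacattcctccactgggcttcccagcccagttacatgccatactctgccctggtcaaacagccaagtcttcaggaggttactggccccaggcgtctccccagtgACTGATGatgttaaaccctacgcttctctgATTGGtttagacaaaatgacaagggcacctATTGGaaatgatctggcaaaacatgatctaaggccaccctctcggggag
HLA-DPB1 (chr6:33075740-33075989, plus strand): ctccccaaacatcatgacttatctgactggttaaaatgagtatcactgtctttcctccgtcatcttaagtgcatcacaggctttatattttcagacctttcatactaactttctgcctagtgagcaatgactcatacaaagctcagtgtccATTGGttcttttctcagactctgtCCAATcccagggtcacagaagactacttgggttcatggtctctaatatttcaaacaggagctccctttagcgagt
CD74 (chr5:150412911-150413160, minus strand): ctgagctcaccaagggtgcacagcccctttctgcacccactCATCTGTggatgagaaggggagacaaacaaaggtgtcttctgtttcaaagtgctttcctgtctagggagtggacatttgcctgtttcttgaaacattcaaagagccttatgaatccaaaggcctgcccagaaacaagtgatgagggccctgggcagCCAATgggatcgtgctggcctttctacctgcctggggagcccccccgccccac
The X-box letters began 75 bases before the start in HLA-DRB1, 109 in HLA-DMA and 84 in HLA-DMB, and in these genes they read along the gene's strand. In CD74 they lay 209 bases before the start on the other strand. They were in 6.36% of 34943 promoter entries of the same length, and the CCAAT core was in 32.0%. HLA-DPB1 held the CCAAT core without the X-box letters. Neither of the 2 entries of HLA-DPA1 held either. A match is a run of letters, and its absence says nothing about whether RFX binds there.

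The smallest library held 14531420 counts and the largest 22028956. A gene at 0 may still stand for up to 3 counts by counting error alone, which is 0.136 to 0.206 CPM (counts scaled to a library total of 1000000). The 6 intestinal markers summed to 37.7 to 66.9 CPM in SW480, 245 to 278 CPM in SW620 and at most 2.35 CPM in PEO4. Most of the SW620 sum was VIL1, which averaged 28.7 CPM in SW480 and 231 CPM in SW620. CDX2 averaged 20.3 and 20.4 CPM in these lines, and CDH17 0.612 and 3.69 CPM. CDX1, GPA33 and KRT20 were at most 1.79 CPM in any SW library. The 6 ovarian markers summed to 5043 to 8166 CPM in PEO4 control, 2593 to 4222 CPM in PEO4 with TGF-β and at most 162 CPM in the SW lines. Most of the PEO4 sum was MUC16, and SOX17 went the other way, averaging 2.78 (SW480) and 3.41 CPM (SW620) but 1.46 and 1.61 CPM in the PEO4 groups. SW620 replicate 3 held an estimated 1.27% of PEO4 reads (95% Poisson interval 1.14 to 1.40%, from 32 genes that the other SW libraries barely express). In the other SW libraries the same estimate rested on 4 or 5 genes and was 0.219% to 0.797%. There the rule leaves out genes with more than 5 counts in SW620 replicate 3, so these shares are no baseline for it. In the other direction, PEO4 control replicate 3 held an estimated 0.945% of SW reads, from 2 genes. The other PEO4 libraries had no gene for this estimate. The PEO4 reads in SW620 replicate 3 would supply 1.44 of its 38 HLA-DRA counts and 4.61 of its 86 CD74 counts. They would supply at most 6.71% of the counts of any of the 8 genes there.

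White blood cells express class II genes strongly, so 14 leukocyte markers were read in the same libraries. In SW620 their sum was 7.92 CPM in replicate 1, 16.9 CPM in replicate 2 and 19.2 CPM in replicate 3. It was 21.9 to 28.3 CPM in SW480, most of it LAPTM5, and 3.68, 10.9 and 11.3 CPM in SW620 against 4.23 to 7.07 CPM in SW480 when LAPTM5 was left out. PTPRC, the leukocyte common antigen and a gene singled out after its values were seen, had 4, 50 and 108 counts in SW620 replicates 1 to 3, and 1, 1 and 0 counts in SW480. Of the 14 markers, 10 had a higher CPM in both SW620 replicates 2 and 3 than in replicate 1, as did all 8 class II genes. Among 29175 genes with at least 5 counts in SW620, 21.2% did the same. No leukocyte marker was at 0 in all SW620 libraries. MS4A1, which marks B cells, was at 0 in all SW480 libraries.

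In PEO4 the leukocyte markers had overlapping ranges in the groups, at 9.97 to 11.9 CPM in control and 10.1 to 11.98 CPM with TGF-β. PTPRC had 51, 50 and 36 counts in control and 46, 41 and 50 with TGF-β. For each PTPRC count there were 0.25, 0.44 and 0.352 HLA-DRA counts in SW620 replicates 1, 2 and 3. The same ratio was 1.88, 3.56 and 5.5 in PEO4 control and 0.913, 1.10 and 1.16 with TGF-β. The part of leukocyte RNA in the class II values was not tested.

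**Figure D1:**
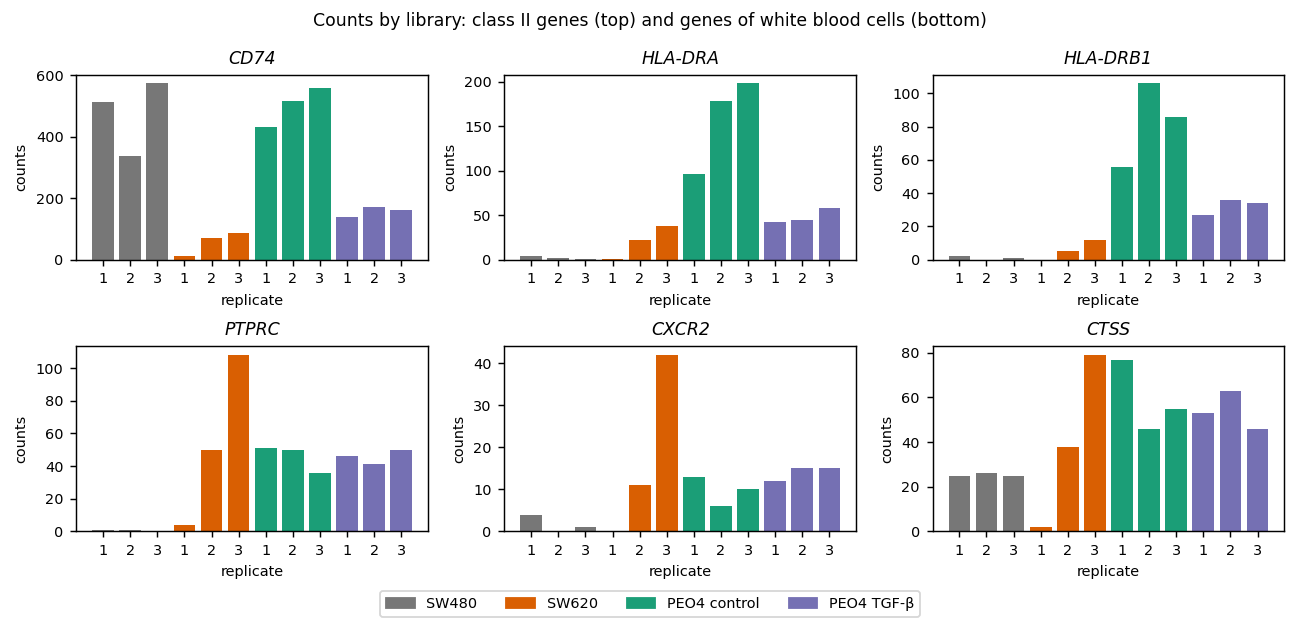
Counts in each of the 12 libraries (replicate number on the x axis, colour for the group) of CD74, HLA-DRA and HLA-DRB1 in the top row, and of PTPRC, CXCR2 and CTSS, which white blood cells express, in the bottom row. SW620 replicate 1 is low for all 6 genes, with 13 CD74 counts and 4 PTPRC counts, and SW620 replicate 3 has 86 and 108.

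The PEO4 comparison asks what 6 days of TGF-β change in this line. CIITA, the classical peptide-presenting pair HLA-DRA and HLA-DRB1, CD74 and HLA-DMA were all lower in each TGF-β library than in any control library, by 2.05-fold to 3.48-fold. HLA-DPA1 and HLA-DPB1, the chains of HLA-DP, did not share this: their libraries overlapped and their means were higher with TGF-β. Of the 7 members with enough counts to be fitted, 5 had non-overlapping libraries with TGF-β lower and 0 with TGF-β higher. Of the 19064 genes tested, 10.3% were lower in this way and 10.4% higher, 20.7% in all. Nothing is read from that count, because the genes were picked with it in view. Of the 6 ovarian markers, MSLN (log2 fold change -0.77 ± 0.09), WT1 (-0.47 ± 0.08) and EMX2 (-0.49 ± 0.09) were lower with TGF-β as well (SE; edgeR's adjusted p 0.00375, 0.0274 and 0.0235). MSLN kept this call whichever library was left out. WT1 lost it without control replicate 2 and without each TGF-β library in turn, and EMX2 without control replicate 2, control replicate 3 and each TGF-β library in turn (adjusted p up to 0.302 and 0.759 over their alternatives). MUC16 had 5228, 6766 and 3569 CPM in control and 3122, 1552 and 1737 CPM with TGF-β, without overlap. PAX8 overlapped between the groups (500, 520 and 508 against 564, 477 and 499 CPM). SOX17 did so too (1.59, 1.46 and 1.32 against 2.05, 1.34 and 1.44 CPM). The part of these changes in lineage markers in the class II values was not tested. In bulk RNA, fewer cells that express a gene and less RNA per cell cannot be told apart.

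CIITA (chromosome 16, 10866222 to 10943021 in GENCODE 29 on GRCh38) stood at 9.12, 13.5 and 18.3 CPM in control replicates 1 to 3, and at 6.62, 6.29 and 6.78 CPM with TGF-β. The control libraries were spread widely and the treated ones were nearly equal, with all treated libraries below the lowest control. The log2 fold change was -1.03 ± 0.21 (SE from the edgeR fit over all genes, n = 3 per group). Without control replicate 3 it was -0.78, and without control replicate 1 it was -1.23. Exons of CIITA overlap those of 3 other annotated genes, among them DEXI on the opposite strand. The strand setting of the counting is not given in the sources used here, so CIITA counts may include reads of those genes.

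HLA-DRA, the invariant α chain of HLA-DR (chromosome 6, 32439842 to 32445046), had 96, 178 and 198 counts in control and 42, 45 and 58 with TGF-β. In CPM these are 4.78, 9.65 and 9.68 against 2.05, 2.08 and 2.69, a log2 fold change of -1.80 ± 0.28 (SE). The groups came nearest at control replicate 1 and TGF-β replicate 3. HLA-DRB1, the polymorphic β chain that pairs with it (chromosome 6, 32578769 to 32589848), went from 2.79, 5.74 and 4.20 CPM to 1.32, 1.66 and 1.58 CPM, a log2 fold change of -1.46 ± 0.30 (SE). Again control replicate 1 was the lowest control and the treated libraries lay close together.

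CD74 (chromosome 5, 150401637 to 150412929) had higher counts than the other 7 genes in every PEO4 library, and its fold change had the smallest SE of the 7 fitted genes. Control libraries held 21.5, 28.0 and 27.3 CPM and treated ones 6.82, 7.95 and 7.43 CPM. The log2 fold change of -1.77 ± 0.13 (SE), a 3.41-fold lower level, moved between -1.85 and -1.69 over 13 alternative fits. HLA-DMA (chromosome 6, 32948613 to 32969094) went from 4.13, 6.12 and 6.70 CPM to 2.05, 3.42 and 2.60 CPM, a log2 fold change of -1.04 ± 0.26 (SE). HLA-DMA shares 229 of its 2534 exonic bases with 2 other genes, one of them BRD2 on the opposite strand, and HLA-DMB shares 438 of 4655 with AL645941.2 on the same strand, so the counts of both may include reads of these genes. Its partner HLA-DMB had 5, 10 and 23 counts in control and 2, 6 and 1 with TGF-β, which was too few to be fitted, and the libraries overlapped.

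HLA-DPA1 and HLA-DPB1 lie head to head on chromosome 6 (33064569 to 33080775 and 33075926 to 33087201) and share 96 exonic bases on opposite strands, so their counts are not fully separate. HLA-DPA1 had 14, 11 and 16 counts in control and 33, 20 and 11 with TGF-β, and HLA-DPB1 had 40, 20 and 14 against 56, 37 and 33. Their log2 fold changes were 0.57 ± 0.46 and 0.67 ± 0.44 (SE). HLA-DPB1 was highest in control replicate 1, the control library in which 6 of the 8 genes were lowest. Of all genes tested, 41.6% were lowest in that library among the controls. Without TGF-β replicate 1 the HLA-DPA1 value was 0.07. Leaving out control replicate 3 moved HLA-DPB1 to 0.36, and leaving out control replicate 1 moved it to 1.22.

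**Figure D2:**
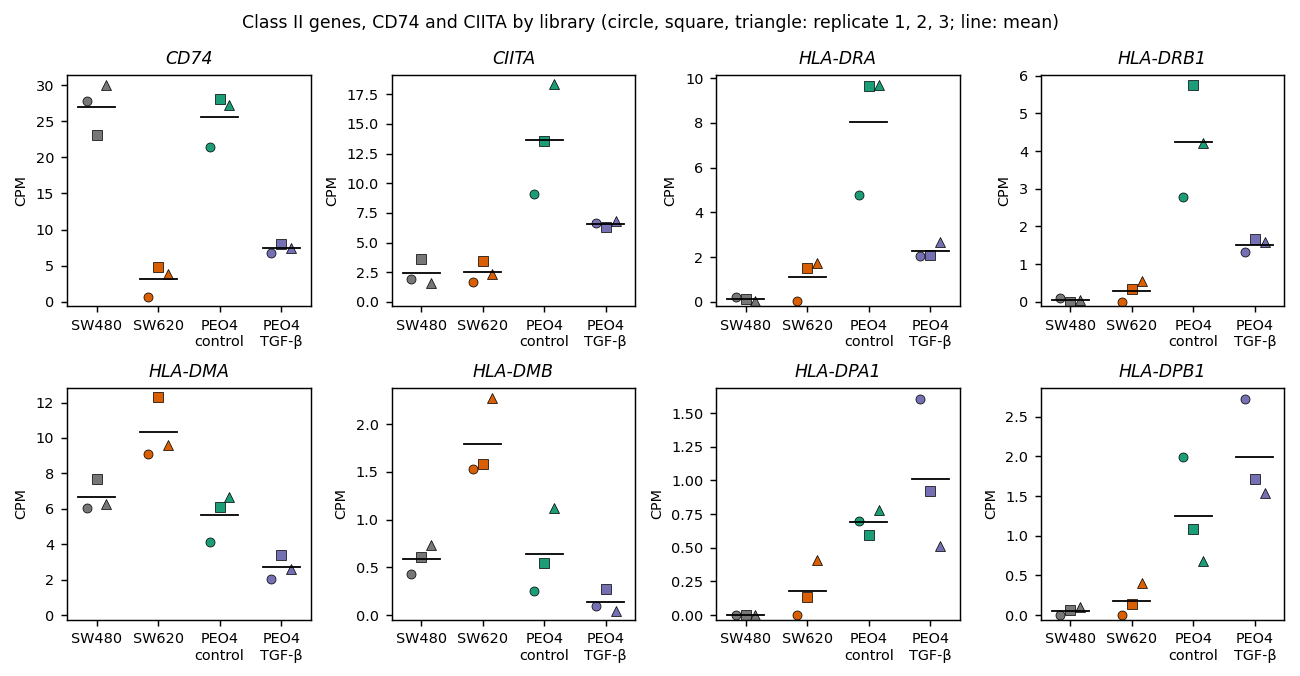
CPM of each of the 8 genes (y axis, linear from 0) in every library of the 4 groups, with circle, square and triangle for replicates 1, 2 and 3 and a line at the group mean. CD74, CIITA, HLA-DRA, HLA-DRB1 and HLA-DMA sit lower in all 3 TGF-β libraries than in the PEO4 controls, and HLA-DPA1 and HLA-DPB1 do not.

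The other class II genes were low in PEO4. HLA-DRB5, a close copy of HLA-DRB1 that can take some of its reads, had 14, 17 and 20 counts in control and 4, 8 and 6 with TGF-β, and HLA-DOA, which with HLA-DOB restrains HLA-DM, had 13, 15 and 12 against 3, 6 and 7. Their log2 fold changes were -1.58 ± 0.42 and -1.41 ± 0.45 (SE), and neither passed edgeR's quasi-likelihood test (Benjamini-Hochberg adjusted p 0.0988 and 0.165 over all genes). HLA-DOB (1.13 ± 0.52; adjusted p 0.315) and HLA-DQB1 (-0.43 ± 0.42; adjusted p 0.657) did not pass either in the same edgeR test. HLA-DQA1 had at most 5 counts in any PEO4 library, HLA-DQA2 at most 2 and HLA-DQB2 3 to 12.

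The 75 genes on 10 lists around the class II pathway were tested in the same fits. In PEO4 none of the 65 with enough counts was past edgeR's threshold (adjusted p 0.05), where 2.26% of all genes tested were, 1.27% higher and 0.991% lower. At an unadjusted p under 0.05 there were 15, or 23.1%, against 3175 of all 19064 genes, or 16.7%. DESeq2 called 4, against 920 of all genes: KAT2B, lower with TGF-β, and the endosomal proteases CTSB, CTSZ and LGMN, higher with TGF-β. In edgeR these 3 proteases had log2 fold changes of 0.33 ± 0.08, 0.44 ± 0.13 and 0.72 ± 0.17 (SE; adjusted p 0.0873, 0.148 and 0.0726). Of the 10 genes on the protease list, 4 had all TGF-β libraries above the controls and 1 had them all below. Of the 65 pathway genes these were 8 and 10, and of all genes tested 10.4% and 10.3%. Of the 12 promoter factors, the RFX subunits had small changes. RFX5, which binds DNA, had a log2 fold change of 0.23 ± 0.10, RFXANK 0.11 ± 0.08 and RFXAP -0.27 ± 0.32 (SE). Their adjusted p in edgeR ran from 0.29 to 0.719. RFX5 was higher in every TGF-β library than in any control library, and the libraries of RFXANK and RFXAP overlapped. KAT2B, an acetyltransferase that works with CIITA, had 8.32, 6.72 and 6.26 CPM in control and 4.09, 2.08 and 4.32 CPM with TGF-β, without overlap. Its log2 fold change was -1.02 ± 0.27 (SE; edgeR's adjusted p 0.0956, DESeq2's 0.0104). The methyltransferase CARM1 had 0.30 ± 0.08 (SE; edgeR's adjusted p 0.101), also without overlap. On the route from interferon-γ to CIITA, the receptor chain IFNGR1 had 0.01 ± 0.10 and the transcription factor IRF1 -0.35 ± 0.21 (SE), neither of them past the threshold. IFNG itself had 0 counts in all 12 libraries. The median log2 fold change of the fitted class II members was -1.04, that of the 65 pathway genes 0.01, and that of all genes tested -0.02. Nothing is read from the distance between these medians, because the members were picked with their changes known.

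The class I genes, which share RFX5 but use NLRC5 in place of CIITA, were on the same lists. In PEO4, HLA-C and the light chain B2M had log2 fold changes of 0.10 ± 0.12 and -0.20 ± 0.13 (SE), and NLRC5 0.67 ± 0.27. None of the 12 was past edgeR's threshold, 2 had an unadjusted p under 0.05, the same 16.7% as over all genes, and DESeq2 called 0.

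**Figure D3:**
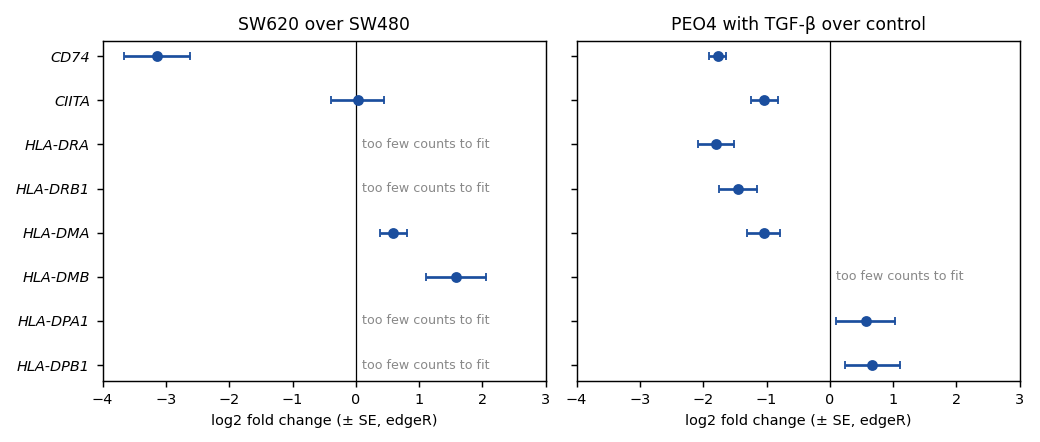
Log2 fold change with its SE from edgeR (x axis) for each of the 8 genes (rows), on the left for SW620 over SW480 and on the right for PEO4 with TGF-β over control. Genes with too few counts have no point. On the right 5 genes lie between -1.80 and -1.03, and on the left CD74 lies at -3.14.

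The SW comparison asks how the line from a metastasis differs from the line of the primary tumour. CD74 was 8.82-fold lower in SW620 by the fit, while both HLA-DM chains were higher, by 1.51-fold for HLA-DMA and 2.98-fold for HLA-DMB. CIITA was low in both lines and its libraries overlapped. HLA-DRA, HLA-DRB1, HLA-DPA1 and HLA-DPB1 were at most 4 counts in every SW480 library, and in SW620 their counts were at most 1 in replicate 1 and more only in replicates 2 and 3. Of the 4 members that could be fitted, 3 had libraries that did not overlap between the lines. This was so for 46.0% of the 20941 genes tested, 22.6% higher and 23.4% lower in SW620, and nothing is read from the members' count.

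CD74 had 27.8, 23.04 and 30.0 CPM in SW480 and 0.736, 4.82 and 3.90 CPM in SW620. All SW620 libraries were below all SW480 libraries, and replicate 1 stood apart below the other two. The log2 fold change was -3.14 ± 0.52 (SE). It was -2.63 without SW620 replicate 1, -3.52 without replicate 3 and -3.17 with the estimated PEO4 reads taken out of replicate 3. With SW620 replicate 1 as the single SW620 library, the one with the fewest leukocyte counts, it was -5.22 ± 0.43 (SE, the lone library assumed to vary like the others), an alternative chosen after seeing the data.

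HLA-DMA had 6.06, 7.68 and 6.27 CPM in SW480 and 9.11, 12.3 and 9.62 CPM in SW620, a log2 fold change of 0.59 ± 0.21 (SE). HLA-DMB (chromosome 6, 32934629 to 32941070) had 8, 9 and 14 counts in SW480 and 27, 23 and 50 in SW620, a log2 fold change of 1.57 ± 0.47 (SE). SW620 replicate 1, with the lowest leukocyte marker sum, was also above all SW480 libraries for both genes: with that library as the single one of SW620 the values were 0.43 ± 0.32 and 1.32 ± 0.67 (SE).

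CIITA had 36, 53 and 31 counts in SW480 and 29, 50 and 52 in SW620. In CPM the group means were 2.39 ± 1.06 and 2.48 ± 0.906 (SD, n = 3), and the log2 fold change of 0.03 ± 0.42 (SE) changed sign in 5 of 15 alternative fits, down to -0.54 with replicate 1 as the single SW620 library.

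HLA-DRA had 4, 2 and 1 counts in SW480 and 1, 22 and 38 in SW620 replicates 1 to 3. HLA-DRB1 had 2, 0 and 1 against 0, 5 and 12, HLA-DPA1 0, 0 and 0 against 0, 2 and 9, and HLA-DPB1 0, 1 and 2 against 0, 2 and 9. In each case SW620 replicate 1 lay within or below the SW480 range and replicate 3 was highest, the same order as for PTPRC. These 4 genes fell under the count filter and have no fold change here. The authors' deposited table lists HLA-DRA with a log2 fold change of 3.03 for SW620 over SW480, from the same libraries. Of the 61 HLA-DRA counts in SW620, replicate 1 holds 1.

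Of the other class II genes, HLA-DQB1, the β chain of HLA-DQ, was lower in SW620. It had 103, 116 and 157 counts in SW480 and 53, 35 and 98 in SW620 (log2 fold change -1.13 ± 0.36, SE; edgeR's adjusted p 0.0434). Leaving out 1 library ended this call in 5 of 6 fits, all but the one without SW620 replicate 3, with adjusted p up to 0.174. It held with replicate 1 as the single SW620 library. Its partner chain HLA-DQA1 had at most 4 counts in any SW library, and HLA-DQA2 and HLA-DQB2 had none. HLA-DOB had 13, 15 and 11 counts in SW480 and 36, 44 and 17 in SW620 (log2 fold change 1.24 ± 0.51, edgeR's adjusted p 0.101). HLA-DRB5 and HLA-DOA had at most 3 counts in any SW library. HLA genes vary between people and resemble each other, so reads of alleles unlike the reference can be lost or assigned to a relative, and counts of single HLA genes are uncertain.

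Of the pathway genes, 60 could be tested between the SW lines and 18 were past edgeR's threshold, 3 higher and 15 lower in SW620 (8 higher and 18 lower when scaled by library totals). Of all genes tested 30.5% were past it, 13.5% higher and 17.0% lower, so the pathway's 18 of 60 is near the background. The endosomal proteases that trim CD74 and antigens were the list with the most lower genes: 4 of 9 passed, all lower, with log2 fold changes of -2.91 ± 0.37 for CTSV, -2.32 ± 0.33 for CTSL, -1.60 ± 0.25 for CTSZ and -1.13 ± 0.22 for CTSB (SE; edgeR's adjusted p from 0.000399 to 0.00377). CTSS, the protease that releases the CD74 fragment in antigen-presenting cells, had 25, 26 and 25 counts in SW480 and 2, 38 and 79 in SW620, the same order over the SW620 replicates as PTPRC (log2 fold change 0.54 ± 0.84, edgeR's adjusted p 0.681). Of the partners of CD74 in signalling by the cytokine MIF, CXCR4 (-4.37 ± 0.51) and CD44 (-2.52 ± 0.19) were lower in SW620 (edgeR's adjusted p 0.000235 and 1.98e-05). MIF itself did not pass (0.56 ± 0.36, edgeR's adjusted p 0.289). CTSV, CTSL, CTSZ, CTSB, CXCR4 and CD44 kept their calls in every alternative in which they were tested.

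Among the promoter factors, RFX5 (0.69 ± 0.19) and SMARCA4, the motor of the BAF chromatin remodeller (0.56 ± 0.18), were higher in SW620. RFXAP (-0.76 ± 0.23) and the acetyltransferase KAT2B (-0.87 ± 0.17) were lower (SE; edgeR's adjusted p from 0.00452 to 0.0444), which makes 4 of 12. On the interferon route JAK2 (-0.75 ± 0.23) and the feedback inhibitor SOCS1 (-1.42 ± 0.42) were lower (edgeR's adjusted p 0.0386 and 0.0306), 2 of 9. Of 7 repressors of CIITA, the Polycomb methyltransferase EZH2 was higher (0.53 ± 0.15) and PRDM1 lower (-0.79 ± 0.22; edgeR's adjusted p 0.0221 and 0.0235). Of 12 class I genes, HLA-B (-1.05 ± 0.28), HLA-F (-1.001 ± 0.28) and the immunoproteasome subunit PSMB9 (-1.62 ± 0.42) were lower, with edgeR's adjusted p from 0.0168 to 0.0248. Of these 11 genes only KAT2B passed whichever library was left out. The other 10 lost their call without SW480 replicate 1 and without SW480 replicate 3, with adjusted p up to 0.353 over their alternatives. With replicate 1 as the single SW620 library, RFX5, RFXAP, SMARCA4, JAK2, SOCS1, EZH2 and PRDM1 lost their call too (edgeR's adjusted p from 0.0638 to 0.353).

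**Figure D4:**
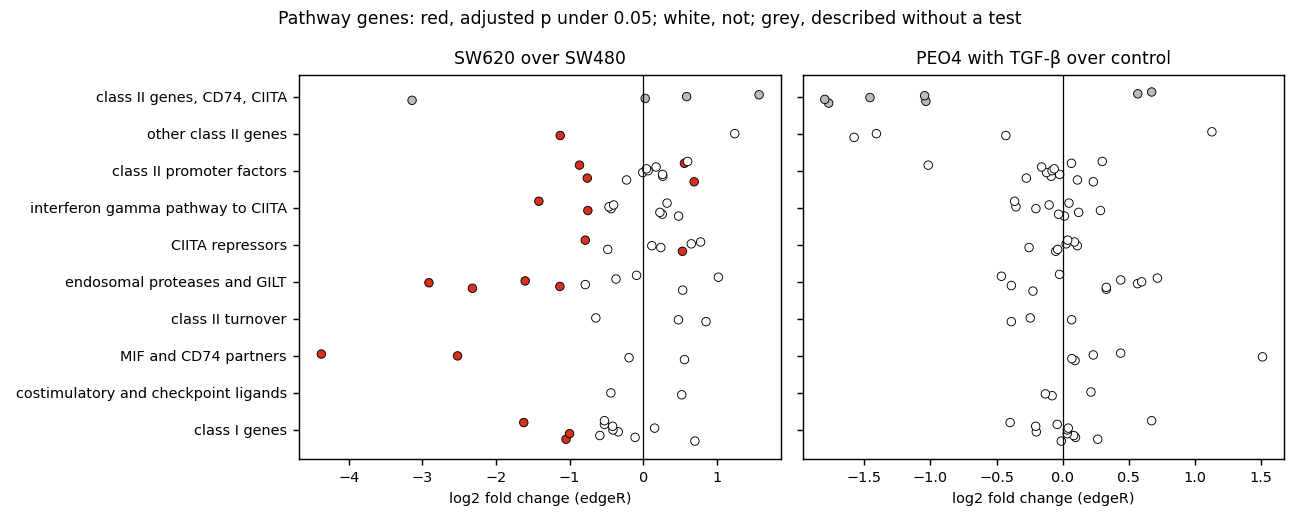
Log2 fold change from edgeR (x axis) of the tested genes of each list (rows), SW620 over SW480 on the left and PEO4 with TGF-β over control on the right, with red for an adjusted p under 0.05, white for others and grey for the 8 genes described without a test. On the left 18 of 60 pathway genes are red, and on the right 0 of 65.

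Across the 4 groups the genes fell into 4 patterns. The line and the medium differ together between PEO4 and the SW lines and cannot be told apart. CIITA, HLA-DRA and HLA-DRB1 were highest in PEO4 control, then PEO4 with TGF-β, then SW620 and SW480. The first 3 of these groups did not overlap, and SW620 and SW480 did. HLA-DPA1 and HLA-DPB1 were highest in the 2 PEO4 groups, which overlapped, and low in the 2 SW lines, which overlapped too. HLA-DMA and HLA-DMB were highest in SW620 and lowest in PEO4 with TGF-β, and SW480 and PEO4 control overlapped between them. The HLA-DMB libraries of the 2 PEO4 groups overlapped as well. CD74 stood alone: SW480 (27.0 ± 3.55 CPM) and PEO4 control (25.6 ± 3.59 CPM) overlapped at the top, with PEO4 with TGF-β (7.40 ± 0.569 CPM) and SW620 (3.15 ± 2.14 CPM; SD, n = 3) apart below them.

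Levels between genes were compared as CPM per kilobase of annotated exon. In PEO4 control CD74 (8.04 ± 1.13) and HLA-DRA (6.28 ± 2.20) were followed by HLA-DRB1 (3.45 ± 1.20) and HLA-DMA (2.23 ± 0.531; SD, n = 3), with HLA-DMB at 0.137 ± 0.0957. In SW480 CD74 (8.46 ± 1.12) was followed by HLA-DMA (2.63 ± 0.347) and HLA-DQB1 (1.47 ± 0.292), and HLA-DRA stood at 0.105 ± 0.0642. SW480 therefore had CD74 at the level of PEO4 control with a per-length HLA-DRA level far below it, outside the spread of either group. In SW620 HLA-DMA was the highest (4.08 ± 0.680), above CD74 (0.990 ± 0.673). In PEO4 with TGF-β the order CD74 (2.32 ± 0.179), HLA-DRA (1.78 ± 0.285), HLA-DRB1 (1.24 ± 0.148) and HLA-DMA (1.06 ± 0.273) was that of the control. The annotated exons of CIITA add up to 20757 bases, more than one transcript holds, so its level per length is not compared. The lengths of the other genes are also sums over all annotated exons, such as 1280 bases for HLA-DRA, 3184 for CD74 and 4655 for HLA-DMB. The order between genes depends on these lengths, and the order of groups for 1 gene does not.

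**Figure D5:**
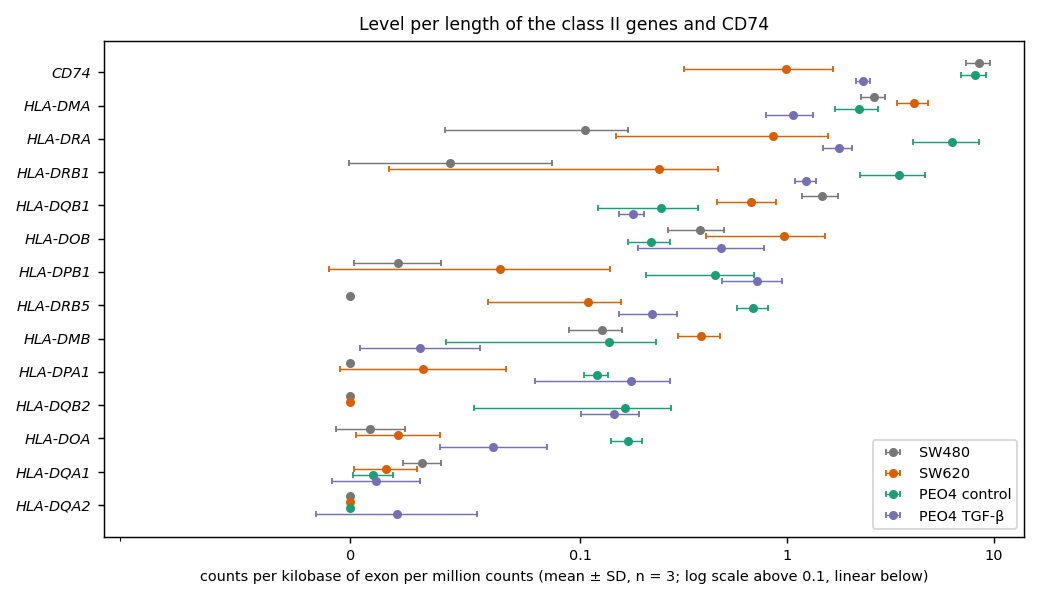
CPM per kilobase of exon (x axis, log scale above 0.1 and linear below) of CD74 and the class II genes (rows) in the 4 groups, as mean ± SD over 3 libraries. CD74 reaches 8.46 in SW480 and 8.04 in PEO4 control, and HLA-DRA 0.105 and 6.28 in the same groups.

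The genes whose profile over the 12 libraries was most like that of CD74 were LRRC10B, RHOU, BST2, ID2 and SLC48A1, with a root mean square difference of 0.52 to 0.69 on the centred log2 CPM scale. SLC48A1, a heme transporter, had 6159 to 11922 counts in SW480, 774 to 1427 in SW620, 11435 to 14028 in PEO4 control and 6144 to 7247 with TGF-β. Among the 5 nearest to HLA-DRA (0.73 to 0.85) were LRRK2, TTC16, PRKCB and GHR. LRRK2, a kinase, had 0 counts in SW480, 0, 13 and 63 in SW620 replicates 1 to 3, 81 to 108 in PEO4 control and 46 to 95 with TGF-β. The profiles mostly follow the difference between lines, and the list near HLA-DRA kept 3 of its 5 genes with another prior count.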

How the data were processed

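The authors' deposited table holds raw counts per Ensembl gene for 57500 genes, and their deposited comparison tables give log2 fold changes of the second group over the first. Per the submitters' processing notes, Trimmomatic 0.36, STAR 2.5.2b, featureCounts of Subread 1.5.2 and DESeq2 were used with GRCh38. Annotation, strand setting and handling of multi-mapping reads are not given in the sources used here. Positions, exon lengths and overlaps came from GENCODE 29 (GRCh38), which may not be the annotation of the counts.

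The 6 libraries of a comparison were fitted alone, in edgeR 4.0.16 under R 4.3.3 (filterByExpr, TMM, quasi-likelihood F test, two-sided, Benjamini-Hochberg over all genes tested, threshold 0.05). SE is the size of the log2 fold change over the square root of F. CPM uses library totals. Lists are described by counts and medians, with no set test. Intervals for counts cover counting error only, since reads are not independent molecules. The methods were tested on simulated data.

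The 8 genes and the lists were chosen with earlier results of these data known. Named are the 8 genes, the other class II genes, list genes past the threshold or defining their list, and the 5 protein-coding genes of at least 1 CPM nearest to CD74 and to HLA-DRA (log2 CPM, prior count 2); CXCR2, PTPRC, LAPTM5, CD40, KAT2B, CARM1 and LGMN in PEO4, lineage markers and some class I genes were named after their values were seen. The planned limit for genes that mark carried-over reads (50 CPM, at most 1 count) left no gene, and the one used (20 CPM, at most 5 counts) was chosen after seeing the data. Alternatives were DESeq2 1.42.0, RLE and total-count scaling, other filters, 1 model of all 12 libraries, a block for the replicate number, and leaving out libraries. Values of some list genes are not reported here.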

Additional observations from a re-analysis of the deposited data

How the results depend on the processing

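The number of pathway genes called between the SW lines was 18, with 30 from all 12 libraries in one model and 41 with the replicate block. It ran from 7 (without SW480 replicate 1, or without SW480 replicate 3) to 24 over the fits that left out 1 library, with 10 without SW620 replicate 1. In PEO4 it was 0, with 4 in DESeq2, 7 without a count filter and 12 with the replicate block, and 0 to 5 over the fits that left out 1 library (5 without control replicate 1, 1 without TGF-β replicate 1). Whether the replicate numbers pair the libraries was not settled. Same-numbered deviations correlated at 0.0159, 0.67 and 0.567 in SW and at 0.291, -0.14 and 0.481 in PEO4 (replicates 1 to 3). With the other numbers, SW replicate 1 had -0.31 and 0.267, replicate 2 had 0.0644 and -0.63, and replicate 3 had -0.0939 and -0.582. In PEO4 the values with the other numbers ran from -0.486 to 0.239. The block is therefore given as an alternative only. Library totals moved the SW split from 3 higher and 15 lower to 8 higher and 18 lower.

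The members with a fitted change of at least 2-fold between the SW lines were 2. They were 6 in DESeq2, without a count filter and in one model of 12 libraries, which fit the low members too, 1 with at least 10 counts in every library, and 2 to 3 when 1 library was left out. In PEO4 they were 5, and 3 (without control replicate 3) to 7 when 1 library was left out. CD74, HLA-DMA and HLA-DMB in SW, and all 7 fitted members in PEO4, kept the sign of their change in every alternative. PEO4 control was highest for 3 of the 8 genes by library totals and for 4 with TMM scaling. The carried-over share was 1.38% with the 3 genes of at least 20 CPM and at most 1 count, and limits of 50 and 100 CPM left no gene. Depth limits the class II chains in the SW lines most, where most libraries hold under 10 counts.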

Other observations

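Of the ligands that accompany antigen presentation, CD40, a receptor of antigen-presenting cells singled out after its values were seen, had 272 to 383 counts in the PEO4 control libraries and 292 to 357 with TGF-β, and at most 8 counts in any SW library. CD80 and CD86, which co-stimulate T cells, had at most 6 and at most 3 counts in any of the 12 libraries. CD274, the checkpoint ligand PD-L1, had 10 to 37 counts per library and did not pass edgeR's test in either comparison (adjusted p 0.55 in SW and 0.814 in PEO4).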
